A study of Mus musculus with 4 samples.

Results

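The genes described here are 10 mouse genes listed as isoforms of respiratory chain subunits and mitochondrial factors known to switch when oxygen is low. They are *Cox4i1*, *Cox4i2*, *Ndufa4*, *Ndufa4l2*, *Cox7a1*, *Cox7a2*, *Cox7a2l*, *Higd1a*, *Lonp1* and *Iscu*. They were chosen by symbol, and all 10 were found by their Ensembl identifiers among the 39179 genes listed for each library. RNA-seq was performed on 4 libraries, with replicates numbered 1 and 3 for the parental cells and for the tumor repopulating cells (TRCs). The parental cells are of B16F1, a melanoma line from mouse, kept in 2D culture on rigid dishes. The TRCs are B16F1 cells that grew into multicellular spheroids in fibrin gels of 90 Pa stiffness and were isolated on day 5. The groups share the cell line and differ in culture geometry, stiffness and survival in the gel at once, and these cannot be told apart. The labels give no oxygen level for either group. The labels do not say whether libraries of a group came from separate cultures, so p-values measure only the spread between these libraries, which may be technical. In bulk RNA, fewer cells of a type and less RNA per cell cannot be told apart.

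The respiratory chain passes electrons to oxygen at cytochrome c oxidase (complex IV), and several of its small nuclear-encoded subunits come in forms encoded by different genes. In low oxygen, the transcription factor HIF-1 is known to raise *Cox4i2*, a form of subunit 4, and *Lonp1*, the matrix protease that removes the usual form encoded by *Cox4i1*. HIF-1 is also known to raise *Ndufa4l2*, a relative of the complex IV subunit gene *Ndufa4* that lowers complex I activity, and *Higd1a*, which encodes a small inner membrane protein that binds complex IV. The microRNA miR-210, itself induced by HIF-1, is known to lower *Iscu*, the scaffold on which iron-sulfur clusters are built. No low-oxygen response is given here for *Cox7a1*, *Cox7a2* or *Cox7a2l*.

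The libraries held between 35948295 and 43511554 counts on genes. Levels are given as CPM, counts relative to the library total after scaling by edgeR's TMM factors. At this depth, 3 counts correspond to between 0.0674 and 0.0849 CPM, a floor that covers counting error only. Alignments to more than 1 place were not assigned to genes and made up 15.2% and 17.1% of alignments in the parental libraries, and in the TRC libraries 18.3% (replicate 1) and 25.2% (replicate 3). A gene was tested when it reached at least 1 CPM, here relative to the unscaled library total, in at least 2 libraries. The summed level of 10 melanocyte lineage markers ranged from 16259 to 19467 CPM in parental cells and from 24645 to 27411 CPM in TRCs. *Oca2* (log2 fold change 1.95, false discovery rate, FDR = 3.22e-08) and *Dct* (1.08, FDR = 0.000307) were the 2 of the 10 higher in TRCs in edgeR's exact test. Over all genes tested, 8.81% were called higher at FDR under 0.05. *Dct* had an FDR of 0.0704 in the quasi-likelihood test. The leukocyte markers summed to 2.32 to 5.17 CPM in parental cells and 1.99 to 2.28 CPM in TRCs, with 5 of 10, *Ptprc* among them, at 0 counts in every library.

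The sequences shown first bear on miR-210 and HIF-1, through which some members are known to respond to low oxygen. For miR-210 they are the mature microRNA (RefSeq, GRCm38.p6, chr7:141221407-141221428, minus strand), with its seed, bases 2 to 8, in capitals, and the stretches of the *Iscu* and *Ndufa4* 3′ UTRs that hold letters complementary to that seed. The *Iscu* stretch lies at chr5:113777975-113777996 on the plus strand and the *Ndufa4* stretch at chr6:11900475-11900496 on the minus strand (GENCODE M21 transcripts, GRCm38), with the complementary letters in capitals.
mmu-miR-210-3p: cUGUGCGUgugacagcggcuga
*Iscu* 3′ UTR: aagaagctacgcaaaACGCACA
*Ndufa4* 3′ UTR: ctttcagaagccatcCGCACAa

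In *Iscu* all 7 letters ACGCACA that pair with the seed were present, in 3 of its 6 annotated transcripts with a 3′ UTR, and in *Ndufa4* the 6 letters CGCACA, in all 4. The 7 letters occurred in an annotated 3′ UTR of 3.77% of 21173 genes and the 6 letters in 10.5%. Of the other members, *Lonp1* held the 6 letters in a single annotated transcript with a long 3′ UTR of 3934 bases. A match is a description of letters and does not show a working site. Counts per gene from such libraries do not measure the mature microRNA, and the *Mir210* gene had between 0 and 2 counts per library.

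For HIF-1 the promoters are shown, since its binding core is known to consist of the letters ACGTG or GCGTG. The window is the 250 bases before the RefSeq start (GRCm38.p6), searched on both strands, and 6 of the 10 genes had a promoter entry. *Cox4i1*, *Cox4i2*, *Ndufa4l2* and *Iscu* had none. For *Higd1a* and *Cox7a2l* the window lies inside the gene as annotated in GENCODE M21, so the sequence before the outermost annotated start was not searched. Printed are *Higd1a*, the member that rose (chr9:121857797-121858046, minus strand), *Lonp1*, the member with the most cores (chr17:56626904-56627153, minus strand), and *Cox7a2l*, which had none (chr17:83514334-83514583, minus strand), with cores on either strand in capitals.
*Higd1a*: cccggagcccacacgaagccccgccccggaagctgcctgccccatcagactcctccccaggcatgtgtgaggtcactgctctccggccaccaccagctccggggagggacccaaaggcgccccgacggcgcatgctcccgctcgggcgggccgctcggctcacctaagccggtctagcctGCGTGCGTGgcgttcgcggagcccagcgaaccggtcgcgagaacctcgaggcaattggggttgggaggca
*Lonp1*: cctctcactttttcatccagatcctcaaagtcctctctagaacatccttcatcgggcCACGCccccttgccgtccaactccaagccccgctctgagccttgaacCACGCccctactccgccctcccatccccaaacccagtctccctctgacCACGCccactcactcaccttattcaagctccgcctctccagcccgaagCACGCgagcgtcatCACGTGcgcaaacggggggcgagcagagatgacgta
*Cox7a2l*: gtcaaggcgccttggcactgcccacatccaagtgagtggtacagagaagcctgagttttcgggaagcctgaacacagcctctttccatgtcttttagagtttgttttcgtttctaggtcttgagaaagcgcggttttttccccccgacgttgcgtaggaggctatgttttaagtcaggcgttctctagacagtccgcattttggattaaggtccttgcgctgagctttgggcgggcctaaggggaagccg

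*Higd1a* had 2 overlapping GCGTG cores that begin 70 and 66 bases before the start. *Lonp1* had 6 cores, 4 of them GCGTG on the opposite strand and 2 of them ACGTG, which overlap on the 2 strands of CACGTG, the palindrome also known as an E-box. *Cox7a1* had 2 cores, *Cox7a2* had 1, and *Ndufa4* had none. A core was found in 38.6% of 32851 promoters of this length, and 2 or more in 16.7%, so a core by itself is common.

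The main comparison asked which of these genes differed between TRCs and parental cells. Of the 10 genes, 7 were tested, and 1 of them, *Higd1a*, was differentially expressed at FDR under 0.05 (edgeR's exact test with Benjamini-Hochberg adjustment over 11483 genes). It was higher in TRCs, and none of the 7 was lower. At an unadjusted p under 0.05, 2 members were higher, *Higd1a* and *Cox7a2l*, and 0 lower. Of all genes tested, 15.9% were called in either direction, 8.81% as higher and 7.05% as lower, so the count of 1 in 7 lies near the background. Both TRC libraries lay above both parental libraries for 3 of the 7 genes, against 30.2% of all genes tested, and below both for 0 of the 7, against 30.4%. The median log2 fold change was 0.21 over the 7 genes and 0.0034 over all genes tested. The 3 genes below the filter are the forms *Cox4i2*, *Ndufa4l2* and *Cox7a1*.

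**Figure D1:**
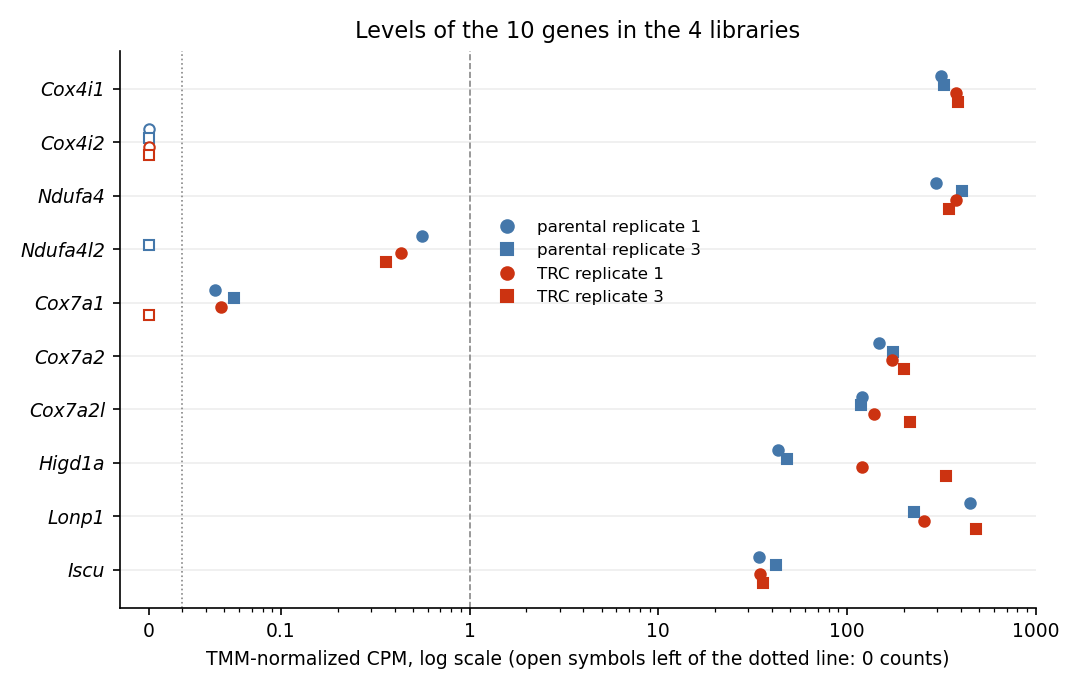
Level of each of the 10 genes (vertical axis) in each library as TMM-normalized CPM on a log scale (horizontal axis), with parental libraries in blue and TRC libraries in red, circles for replicate 1 and squares for replicate 3, and a dashed line at 1 CPM. *Cox4i2*, *Ndufa4l2* and *Cox7a1* sit at 0 or below 1 CPM in every library, and *Higd1a* is the gene whose groups lie farthest apart.

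*Higd1a* (ENSMUSG00000038412, chromosome 9 from 121848563 to 121858362, minus strand) had 43.0 and 48.3 CPM in parental replicates 1 and 3, and 120 and 334 CPM in TRC replicates 1 and 3. Both TRC libraries were above both parental libraries, and the TRC libraries differed from each other 2.79-fold. The group means were 45.7 ± 3.75 CPM (SD, n = 2) for parental cells and 227 ± 152 CPM (SD, n = 2) for TRCs. The log2 fold change was 2.31 (SE 0.39 from DESeq2, FDR = 2.95e-07 in edgeR's exact test), or 4.96-fold. The FDR stayed under 0.05 in each of 14 alternative fits, with a highest value of 0.0278. Without TRC replicate 3 the log2 fold change was 1.38, and without TRC replicate 1 it was 2.85.

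Part of the *Higd1a* sequence is shared. The longest annotated transcript of *Higd1a* holds 2132 words of 101 bases, the read length. Of these, 688 (32.3%) also occur in other annotated transcripts, read on either strand. Most of them, 583 words, are shared with a gene on the opposite strand of the same place. That gene overlaps 683 bases of the *Higd1a* exons and is not listed in the count files. The processed pseudogene *Gm9790* shares 105 words. That pseudogene had 4 and 6 counts in the parental libraries and 12 and 71 in the TRC libraries. The strand setting of the counting is not given in the sources used here, so reads from the overlapping strands cannot be told apart. The part of the overlapping gene and of the pseudogene in the *Higd1a* difference was not tested.

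Of the 4 genes of the hypoxia-inducible domain family, *Higd1b* and *Higd1c* had 0 counts in every library. *Higd2a*, which encodes a second family member that takes part in complex IV assembly, had 35.8 and 33.9 CPM in parental replicates 1 and 3 and 43.9 and 69.5 CPM in TRC replicates 1 and 3. Its groups did not overlap, with a log2 fold change of 0.70 (SE 0.28, FDR = 0.0495 in edgeR's exact test). This call was lost in several alternatives, with an FDR of 0.0967 in the quasi-likelihood test and from 0.0207 to 0.618 over the 14 alternatives.

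No exchange of forms was detectable at this depth for the genes of subunit 4. *Cox4i1* (ENSMUSG00000031818, chromosome 8 from 120668222 to 120674207), which encodes the usual form, had 313 and 325 CPM in parental replicates 1 and 3 and 377 and 388 CPM in TRC replicates 1 and 3. Both TRC libraries lay above both parental ones, but the difference did not pass the test, with a log2 fold change of 0.26 (SE 0.18, 95% interval −0.096 to 0.62, FDR = 0.483 in edgeR's exact test). *Cox4i2* (ENSMUSG00000009876, chromosome 2 from 152754173 to 152765037), the low-oxygen form, had 0 counts in all 4 libraries. Beside 11498 to 16143 counts of *Cox4i1*, a count of 0 allows *Cox4i2* a share of up to 0.0261% of the counts of both genes in parental cells and up to 0.0191% in TRCs, by counting error only. *Cox4i2* has no word of 101 bases in common with another annotated transcript, while 8.12% of the words of *Cox4i1* are shared with *Emc8*, a gene that overlaps it on the opposite strand.

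*Ndufa4* (ENSMUSG00000029632, chromosome 6 from 11900292 to 11907497, minus strand) had 295 and 405 CPM in parental replicates 1 and 3 and 376 and 348 CPM in TRC replicates 1 and 3. The groups overlapped, with a log2 fold change of 0.047 (SE 0.23, 95% interval −0.40 to 0.49, FDR = 0.927 in edgeR's exact test). *Ndufa4l2* (ENSMUSG00000040280, chromosome 10 from 127514967 to 127517154) had 25 and 0 counts in parental replicates 1 and 3 and then 18 and 15 counts in those of the TRCs, or 0.562, 0, 0.433 and 0.360 CPM. The highest and the lowest library were both parental, and no library reached 1 CPM. Exact 95% Poisson intervals of the parental counts were 16.2 to 36.9 for 25 and 0 to 3.69 for 0, so the parental libraries differed by more than counting error. The TRC counts lay between the parental ones, with intervals of 10.7 to 28.4 for 18 and 8.40 to 24.7 for 15. Without the filter its log2 fold change was 0.43, with an FDR of 1.0 in edgeR's exact test.

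Per kb of merged exons, *Ndufa4l2* made up 0.239% of the summed level of *Ndufa4* and *Ndufa4l2* in parental replicate 1, 0% in parental replicate 3, and 0.145% and 0.130% in TRC replicates 1 and 3. The mean share was 0.120 ± 0.169% (SD, n = 2) in parental cells and 0.138 ± 0.0101% (SD, n = 2) in TRCs, with p = 1.0 in an exact two-sided permutation test, which in 2 against 2 libraries cannot give less than 0.333. The TRC shares lay within the parental range.

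*Cox7a2* (ENSMUSG00000032330, chromosome 9 from 79755361 to 79759878, minus strand), the form of subunit 7a used in most tissues, had 147 and 175 CPM in parental replicates 1 and 3 and 173 and 200 CPM in TRC replicates 1 and 3. The groups overlapped, with a log2 fold change of 0.21 (SE 0.21, 95% interval −0.20 to 0.62, FDR = 0.605 in edgeR's exact test). *Cox7a1* (ENSMUSG00000074218, chromosome 7 from 30184144 to 30186078), the heart and skeletal muscle form, had 2, 2, 2 and 0 counts in the same order, all below the floor of 3 counts. Its share of the pair per kb was 0.0554 ± 0.0023% (SD, n = 2) in parental cells and 0.0245 ± 0.0347% (SD, n = 2) in TRCs, with p = 0.333 in the exact permutation test, the smallest it can give. A change of the *Cox7a1* share was not detectable at this depth.

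*Cox7a2l* (ENSMUSG00000024248, chromosome 17 from 83501918 to 83517330, minus strand) encodes a relative of subunit 7a known from supercomplexes of complexes III and IV, which were not measured here. It had 121 and 118 CPM in parental replicates 1 and 3 and 138 and 217 CPM in TRC replicates 1 and 3. The groups did not overlap, and most of the distance came from TRC replicate 3. The log2 fold change of 0.57 (SE 0.26, 95% interval 0.068 to 1.08) had an unadjusted p of 0.0277 and an FDR of 0.120 in edgeR's exact test. Without TRC replicate 1 it was 0.84 (FDR = 0.0464 in the exact test), and without TRC replicate 3 it was 0.20. A processed pseudogene, *Gm6969*, shares 9.82% of its 101-base words and had between 5 and 24 counts per library.

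**Figure D2:**
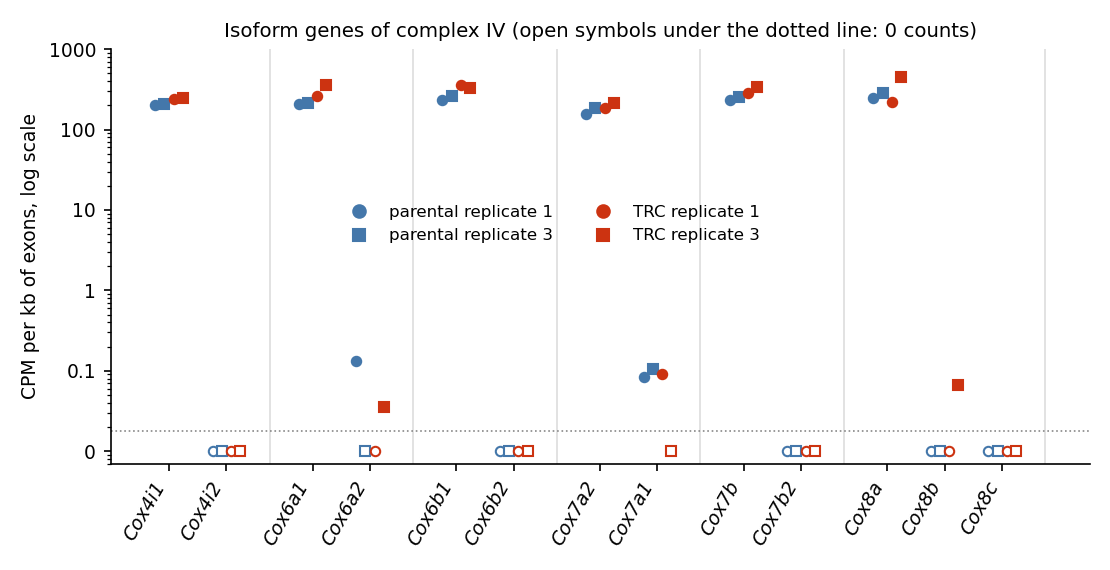
Level per kb of merged exons (vertical axis, CPM per kb on a log scale) of complex IV subunit genes that come in several forms, grouped by subunit along the horizontal axis, in the 4 libraries. The first gene of each group lies between 156 and 448 CPM per kb in every library, and the other forms lie at 0 or at most at 0.132.

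The same holds for the other complex IV subunits with tissue forms, named here after their values were seen. *Cox6b2*, *Cox7b2* and *Cox8c*, known from testis, had 0 counts in every library, and the muscle forms *Cox6a2* and *Cox8b* had 5 and 1 counts in all 4 libraries together. The marker genes of striated muscle summed to between 3.79 and 6.29 CPM per library, with 3 of 10, *Actc1* among them, at 0 counts in every library. *Cox4i2*, *Ndufa4l2* and *Higd1b* are known as genes of pericytes, the contractile cells of small vessels. Of 10 pericyte markers, 6 stayed under 1 CPM in every library, and *Rgs5*, *Kcnj8* and *Higd1b* had 0 counts. The sum of the list, 305 to 438 CPM in parental cells and 102 to 147 CPM in TRCs, was mostly *Mcam*, a melanoma adhesion gene that was lower in TRCs (log2 fold change −1.61, FDR = 6.85e-07).

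*Lonp1* (ENSMUSG00000041168, chromosome 17 from 56614297 to 56626887, minus strand) had 450 and 225 CPM in parental replicates 1 and 3 and 254 and 483 CPM in TRC replicates 1 and 3. The highest library of each group was about as high as that of the other, and the spread within groups, 2.0-fold in parental cells and 1.90-fold in TRCs, was larger than the difference between them. The log2 fold change was 0.13 (SE 0.36, 95% interval −0.58 to 0.84, FDR = 0.859 in edgeR's exact test). Its sign depended on the library left out, with 0.71 without parental replicate 1 and 0.50 without TRC replicate 1, but −0.29 without parental replicate 3 and −0.42 without TRC replicate 3.

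The median of the log2 fold changes was −0.14 over 17 mitochondrial protease genes tested, *Lonp1* included. Of these genes 4 were called, each of them lower in TRCs, or 23.5% against 15.9% of all genes tested, called in either direction. They were led by *Htra2*, which encodes an intermembrane space protease (−0.90, FDR = 0.00476), *Pitrm1*, whose product degrades cleaved targeting peptides (−0.76, FDR = 0.0110), and *Lactb* (−0.72, FDR = 0.0306). The quasi-likelihood test called 2 of the 4, with an FDR of 0.0672 for *Lactb*, and the exact test without TRC replicate 3 called 0.

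*Iscu* (ENSMUSG00000025825, chromosome 5 from 113772748 to 113778288), whose 3′ UTR holds the letters shown above, had 34.2 and 42.2 CPM in parental replicates 1 and 3 and 34.4 and 35.8 CPM in TRC replicates 1 and 3. The TRC libraries lay within the parental range. The log2 fold change was −0.12 (SE 0.23, 95% interval −0.58 to 0.34, FDR = 0.802 in edgeR's exact test), so a fall to below 0.669-fold lies outside the interval. Of 17 genes of iron-sulfur cluster assembly, all tested, 0 were called in either direction, against 15.9% of all genes tested. Their log2 fold changes ran from −0.77 to 0.50 around a median of −0.087. By sign alone, 5 of the 17 had a positive value, and at an unadjusted p under 0.05, 1 was higher and 3 were lower. The quasi-likelihood test also called 0, and the exact test called up to 2 when a library was left out.

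**Figure D3:**
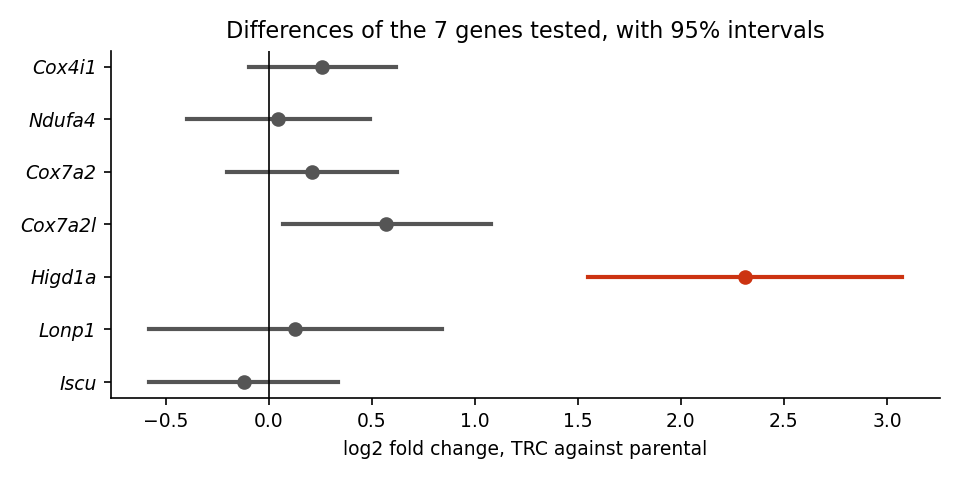
Log2 fold change of the 7 genes tested, TRC against parental (horizontal axis), as points from edgeR's exact test with 95% intervals from DESeq2's standard errors as lines. *Higd1a*, in red, is the gene with an FDR under 0.05, the interval of *Cox7a2l* begins at 0.068, and the intervals of the other 5 genes cross 0.

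Levels of different genes can be set side by side only per length. In parental cells the mean levels per kb of merged exons were 254 ± 56.2 CPM per kb (SD, n = 2) for *Ndufa4*, 206 ± 5.57 for *Cox4i1*, 171 ± 20.8 for *Cox7a2*, 80.8 ± 1.24 for *Cox7a2l* and 77.2 ± 36.3 for *Lonp1*. Among the tested genes they were lowest for *Iscu*, with 17.5 ± 2.61, and *Higd1a*, with 15.0 ± 1.23. *Ndufa4l2*, with 0.256 ± 0.363, *Cox7a1*, with 0.0949 ± 0.0154, and *Cox4i2*, at 0, followed far below. In TRCs the level per kb was 262 ± 14.6 CPM per kb (SD, n = 2) for *Ndufa4*, 247 ± 4.73 for *Cox4i1*, 198 ± 20.4 for *Cox7a2*, 120 ± 37.7 for *Cox7a2l* and 84.3 ± 37.0 for *Lonp1*. *Higd1a* followed with 74.6 ± 49.8 and *Iscu* with 16.1 ± 0.458, while *Ndufa4l2* had 0.362 ± 0.0468 and *Cox7a1* 0.0449 ± 0.0635. *Ndufa4* and *Cox4i1*, *Cox7a2l* and *Lonp1*, *Iscu* and *Higd1a*, and *Ndufa4l2* and *Cox7a1* were neighbours in parental cells that differed by less than the SD of the more variable gene. In TRCs this held for *Cox7a2l* and *Lonp1*, for *Lonp1* and *Higd1a*, and for *Cox7a1* and *Cox4i2*. The counts of *Cox7a1* and *Cox4i2* lay below the floor in every library, so their place in the order is not resolved. The order also depends on the length used. *Cox4i1* has 1550 bases of merged exons but 765 in its longest transcript, and *Ndufa4* has 1381 and 1232. Per length of the longest transcript, *Cox4i1* would lie above *Ndufa4* in both groups.

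The other genes of the pathway give the setting of these values. Over all genes tested, edgeR's exact test called 15.9% in either direction, 8.81% as higher and 7.05% as lower. Of 11 complex IV subunit genes tested, *Cox4i1*, *Cox7a2* and *Ndufa4* included, 0 were called in edgeR's exact test or in the quasi-likelihood test, and log2 fold changes lay between −0.21 and 0.53 around a median of 0.26. By sign alone, 9 of the 11 had a positive value, and at an unadjusted p under 0.05, 2 were higher and 0 lower. Of 36 nuclear-encoded complex I genes, 2 were called higher and 0 lower, or 5.56%, with a median of 0.017. They were *Ndufv3*, with 76.2 and 66.1 CPM in parental replicates 1 and 3 and 137 and 309 CPM in TRC replicates 1 and 3 (log2 fold change 1.65, FDR = 4.25e-05), and *Ndufa1*, with a log2 fold change of 0.65 (FDR = 0.0350). The *Ndufa1* call was lost in the quasi-likelihood test (FDR = 0.0618). Of 29 genes of complexes II, III and V, 0 were called, with a median of 0.011, and of 12 mitochondrially encoded genes 0, with a median of −0.099. Before adjustment, p was under 0.05 for 1 gene in each direction in each of these lists, and DESeq2 called 1 gene of complexes II, III and V. *Sdha*, of complex II, had a log2 fold change of −0.084, and *mt-Nd1*, of complex I, −0.20.

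Of 27 genes tested for complex IV assembly and supercomplexes, 2 were called higher and 3 lower, or 18.5% against 15.9% of all genes tested. The median was −0.0097. The higher genes were *Higd1a* and *Higd2a*. The lower genes were *Lrpprc*, which encodes a protein that keeps mitochondrial mRNAs stable (−1.01, FDR = 0.000914), *Cox10*, which encodes an enzyme of heme A synthesis (−0.84, FDR = 0.00951), and *Coa7* (−1.04, FDR = 0.0421), all in edgeR's exact test. The calls of *Coa7* and *Higd2a* were lost in the quasi-likelihood test, with an FDR of 0.0726 for *Coa7*.

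**Figure D4:**
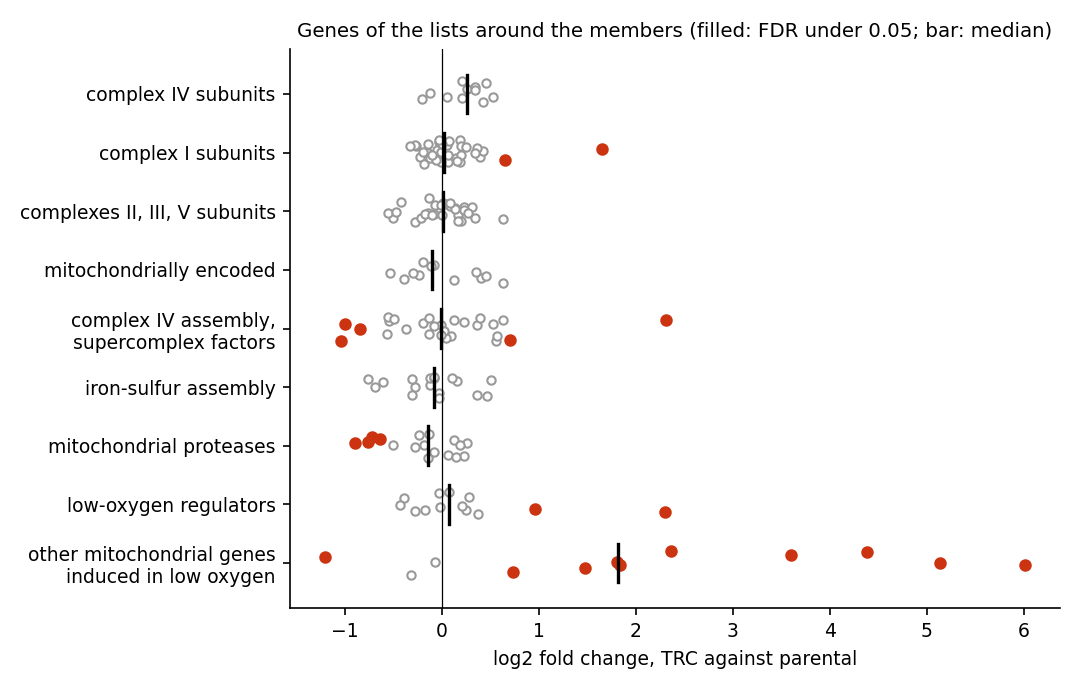
Log2 fold change, TRC against parental (horizontal axis), of every tested gene of 9 gene lists (vertical axis), with filled red points for FDR under 0.05 in edgeR's exact test and a black bar for the list median. The lists of structural subunits have medians between −0.099 and 0.26, and the last list has a median of 1.82.

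Genes that are known to act on the members were measured as well. *Hif1a*, which encodes the oxygen-regulated part of HIF-1, had 241 and 278 CPM in parental replicates 1 and 3 and 578 and 430 CPM in TRC replicates 1 and 3 (log2 fold change 0.96, FDR = 0.00209 in edgeR's exact test). These RNA levels do not measure the HIF-1 protein or its activity. *Cxxc5*, one of the factors known to act on the oxygen-responsive element of *Cox4i2*, rose from 12.6 and 9.0 CPM to 43.9 and 62.3 CPM in the same order (log2 fold change 2.30, FDR = 2.96e-12). *Rbpj* and *Chchd2*, known to act on the same element, had log2 fold changes of 0.37 and −0.025 (FDR = 0.271 and 0.966). Whether any of these factors raises or lowers *Cox4i2* was not tested. *Hif1a* and *Cxxc5* were the 2 genes called among 13 regulators tested, 15.4% against 15.9% of all genes tested. The median over the 13 was 0.074.

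Genes listed as other mitochondrial genes induced in low oxygen were mostly higher in TRCs, though the description does not hold for every entry. *Mxi1* encodes a nuclear transcription factor, and induction in low oxygen is not established for each gene of the list. Of the 12 genes listed, all tested, 9 were called higher and 1 lower, or 83.3% against 15.9% of all genes tested. The median was 1.82 on the log2 scale. *Mgarp*, which encodes a mitochondrial transport protein, rose from 0.539 and 0.566 CPM in parental replicates 1 and 3 to 29.9 and 41.8 CPM in TRC replicates 1 and 3 (6.01, FDR = 2.83e-41). *Bnip3*, a mitophagy receptor gene, rose from 29.2 and 19.7 to 476 and 1239 CPM (5.13, FDR = 2.37e-27). *Pdk1*, whose kinase keeps pyruvate out of the citric acid cycle, rose from 17.2 and 11.0 to 155 and 436 CPM (4.39, FDR = 2.03e-19). The lower gene, named after its values were seen, was *Chchd4*, which encodes the import factor of the intermembrane space (−1.20, FDR = 1.57e-05). The list was written with earlier results of these data known, so its direction is not independent evidence.

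The TRC libraries were not alike in these genes. TRC replicate 3 was above TRC replicate 1 2.79-fold in *Higd1a*, 2.60-fold in *Bnip3*, 2.81-fold in *Pdk1* and 2.26-fold in *Ndufv3*, and in 11 of the 12 genes of the last list. It was the higher TRC library in 6 of the 7 members tested, *Ndufa4* being the exception, in 35 of 36 complex I genes, in 28 of 29 genes of complexes II, III and V and in 8 of 11 complex IV subunit genes. It was the higher one in 5 of 12 mitochondrially encoded genes, 10 of 17 protease genes, 13 of 17 iron-sulfur genes, 22 of 27 assembly genes and 8 of 13 regulators. Over all genes tested it was the higher one in 50.1%, and among the genes called higher in TRCs in 52.6%. TRC replicate 3 is also the library with the largest share of alignments to more than 1 place, and the part of this in the differences was not tested.

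By profile over the 4 libraries, the genes nearest to *Higd1a* were *Rab17*, *P4ha2* and *Gbe1*, with Euclidean distances of 0.112, 0.233 and 0.254 between log2(CPM + 0.5) values centred on each gene's mean. *Rab17* had 3.91 and 4.61 CPM in parental replicates 1 and 3 and 11.9 and 31.1 CPM in TRC replicates 1 and 3. The genes nearest to *Iscu*, the tested member with a fold change below 1, were *Trappc13*, *P2ry1* and *Slc35b2*, with distances of 0.0293, 0.0298 and 0.0316, each likewise highest in parental replicate 3. With 4 libraries such distances describe the profiles only.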

How the data were processed

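RNA-seq libraries, 2 of parental cells and 2 of TRCs, were grouped by the sample labels. The authors deposited unnormalized counts for each Ensembl gene, made by trimming single-end reads of stranded libraries with Trimmomatic 0.35, aligning them to GRCm38 with TopHat2 2.1.0 and counting with htseq-count. The counting mode and strand setting are not given in the sources used here. Totals that name no gene, 20.2% to 29.0% of alignments, were left out.

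Symbols, positions and exon lengths came from GENCODE M21. Genes with at least 1 CPM in at least 2 libraries (11483) were normalized with TMM, with factors from 0.957 to 1.04, and compared with edgeR 4.0.16 (exact test, tagwise dispersions, prior count 0.125) under R 4.3.3. Standard errors and 95% intervals came from DESeq2 1.42.0. Poisson and binomial limits of 1 library cover counting error only. The exact, quasi-likelihood and Wald tests were checked on simulated counts. Alternatives were other filters, scalings, dispersions and tests, and each library left out in turn. Shrinkage of dispersions toward the common value was added after the data were examined.

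The members and lists were chosen with earlier results of these data known. Besides the members, the text names from each list up to 3 called genes with the smallest FDR, or its first gene, and the 3 nearest profiles, with exceptions named where they stand. *Rbpj*, *Chchd2*, *Mir210*, *Mxi1*, *Rgs5*, *Kcnj8*, *Higd1b*, *Higd1c* and the genes that overlap or copy a member lie outside this rule and were named after their values were seen.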

Additional observations from a re-analysis of the deposited data

Results flagged for a closer look

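Alignments that were not unique, which enter no comparison, made up a larger share in both TRC libraries, with 18.3% in replicate 1 and 25.2% in replicate 3, than in the parental libraries, with 15.2% and 17.1%. The difference was not tested. Its part in the members' values was not tested.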

How the results depend on the processing

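*Higd1a* was called in every alternative, with a log2 fold change between 2.13 and 2.32 in the alternatives that keep all libraries and between 1.38 and 2.85 with 1 library left out. No other member was called, except *Cox7a2l* without TRC replicate 1, so that 1 to 2 members were called with 1 library left out. With 1 library left out, the lone library of a group is assumed to vary like the other group, and the log2 fold change ranged from 0.20 to 0.84 for *Cox7a2l*, −0.16 to 0.29 for *Ndufa4*, −0.42 to 0.71 for *Lonp1* and −0.27 to 0.038 for *Iscu*, changing sign in the last 3. The share of *Cox7a1* in parental cells was 0.0427% with the longest transcript as length, in place of 0.0554%. The total of 1822 genes called became 1054 in the quasi-likelihood test, 785 in that test with a replicate block, and 773 to 1932 with 1 library left out (863 without parental replicate 3 and 773 without either TRC replicate). The labels do not say that equal numbers mark a shared culture, and deviations of same-numbered libraries correlated with r = 0.027 across genes, so the numbers were not taken as pairs.

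Among the lists, the 5 genes called for complex IV assembly became 3 without a filter and in the quasi-likelihood test, 2 once the replicate block was added, and 2 to 4 with 1 library left out. The 2 complex I genes became 1 without a filter, with library size only, in the quasi-likelihood test and with dispersions shrunk toward the common value, 0 with the replicate block, and 1 to 2 with 1 library left out. The 4 protease genes became 2 with the replicate block and 2 by quasi-likelihood without it, 1 with dispersions shrunk toward the common value, and 0 to 4 with 1 library left out. The 2 genes of the hypoxia-inducible domain family became 1 under every alternative that keeps all libraries except DESeq2 size factors and the filter of 1 CPM in 3 samples, and 1 to 2 otherwise. Complexes II, III and V had 1 gene called in DESeq2's Wald test and 0 to 1 with 1 library left out, mitochondrially encoded and iron-sulfur genes 0 to 2, and regulators 1 to 2. The cause of these changes was not tested. The depth limits *Cox4i2* and *Cox7a1*, at or under 3 counts per library.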
